A study of Canis lupus familiaris with 8 samples.

Results

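ATF3 and 8 genes of the integrated stress response were followed in stretched dog kidney epithelial cells. The genes were ATF3, ATF4, DDIT3, TRIB3, CHAC1, SESN2, ASNS, PPP1R15A and DDIT4, picked by symbol from the 37952 genes of the deposited count table. All 9 were present, and all 9 were among the 14571 genes that passed the filter on low counts. The cells were MDCK GII, a line derived from dog kidney, grown overnight as monolayers on collagen-coated elastic silicone membranes. The stretch group (4 wells) was held at 18% strain, equal in both in-plane directions, for 2 hours. The control group (4 wells) was cultured on the same kind of device, and no strain is given for it in the labels. All wells come from 1 unmodified cell line and the labels describe them as technical replicates, so p-values measure the spread between wells of that line. The labels add that wells were assigned to separate devices at random, and do not say whether wells with the same number shared one. The series as a whole concerns force on E-cadherin and EGFR-ERK signalling.

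The integrated stress response is the pathway by which cells answer amino acid shortage, misfolded protein in the endoplasmic reticulum, double-stranded RNA or haem and mitochondrial stress. Kinases that sense these states phosphorylate the translation initiation factor eIF2, which lowers general protein synthesis while the messenger of the transcription factor ATF4 is translated more. ATF4 then switches on genes of amino acid supply and of feedback, and its level of RNA alone does not report the level of its protein. ATF3 is a related transcription factor of the bZIP class, known both as a target of ATF4 and as an immediate-early gene switched on by growth factor, MAPK and damage signals. The question is whether ATF3 moved alone or together with ATF4 and its targets.

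Wells held between 27047358 and 32478887 counts. Epithelial markers were abundant, with 9 of 9 tested and a summed level of 4926 to 5488 CPM in control wells and 5191 to 5313 CPM in stretch wells. CPM is the count scaled to a common library total with TMM factors. The 8 fibroblast and smooth muscle markers summed to at most 7.09 CPM in any well, with COL1A2, COL3A1, LUM and DCN at 0 counts in all wells. The 5 endothelial markers reached at most 2.37 CPM and the 5 immune markers at most 0.993 CPM, with PTPRC, CD3E and LYZ at 0 counts.

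ATF3 and CHAC1 were the 2 of the 9 genes that passed in edgeR's test when wells with the same replicate number were compared. PPP1R15A and DDIT4 were also higher in 4 of 4 such pairs but did not pass. Of all tested genes, 8.45% were higher in all 4 pairs. In the fit of all 8 wells that ignored this number, 0 of the 9 genes passed an adjusted p of 0.05 (edgeR quasi-likelihood test, Benjamini-Hochberg over all 14571 genes), against 0% of all tested genes. At an unadjusted p under 0.05 there were 2 of 9 in that fit, CHAC1 and PPP1R15A, against 3.97% of all genes. In a second fit the replicate number entered as a block, and this is called the paired fit below, the first being the unpaired fit. There 2 of 9 passed in edgeR's test, against 0.700% of all genes (0.528% higher). At an unadjusted p under 0.05 there were 5 of 9 in the paired fit, all higher, against 8.89% of all genes (edgeR). These were ATF3, CHAC1, PPP1R15A, DDIT4 and DDIT3. The median log2 change of the 9 genes was 0.17 in the unpaired fit and 0.18 in the paired fit, beside -0.0032 and -0.0022 over all tested genes. Leaving out 1 well moved the unpaired median to between 0.081 (without control replicate 3) and 0.26, with 0.097 and 0.12 without stretch replicates 2 and 1. Without ATF3, the other 8 had a median of 0.098. These counts and medians are descriptions, since the 9 genes were listed with earlier results of the data known.

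**Figure D1:**
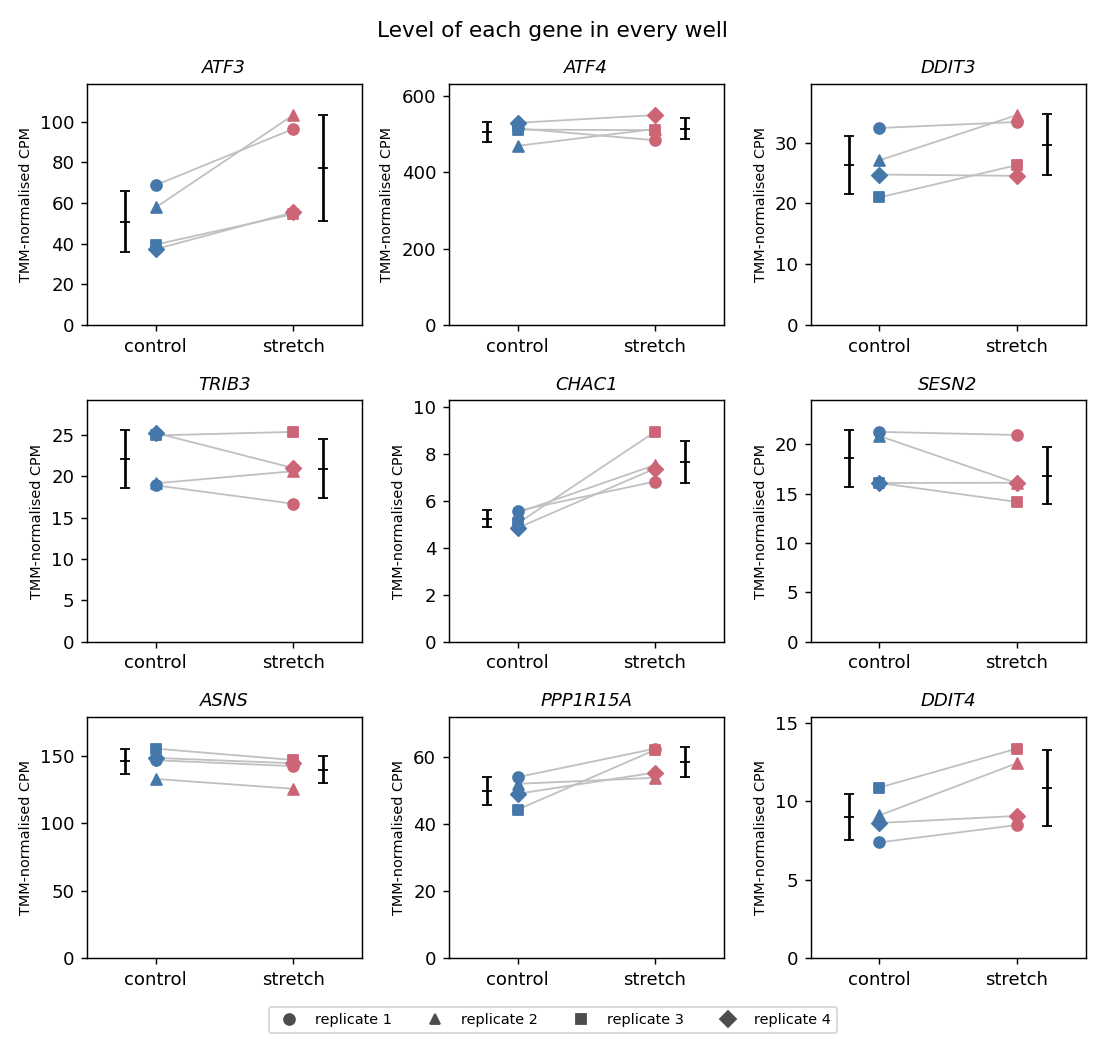
TMM-normalised CPM (vertical axes, from 0) of each of the 9 genes in the 4 control and 4 stretch wells, with grey lines joining wells of the same replicate number and black bars for the mean ± SD of each group. ATF3 was higher after stretch along all 4 lines although the groups overlapped, CHAC1 was higher in every stretch well than in any control well, and ATF4 and ASNS stayed close to their control levels.

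ATF3 lies on chromosome 7 (10637865 to 10648720, plus strand). Its level in control replicates 1 to 4 was 68.8, 57.8, 39.5 and 37.3 CPM, from 1168 to 1873 counts. In stretch replicates 1 to 4 it was 96.4, 103, 54.5 and 55.4 CPM, from 1590 to 2807 counts. The groups overlapped, because replicates 1 and 2 were high in both groups: stretch replicates 3 and 4 lay below control replicates 1 and 2. Within each number the stretch well was the higher one, by 0.49, 0.84, 0.46 and 0.57 on the log2 scale for replicates 1 to 4, whereas 8.45% of all tested genes were higher in all 4 pairs. The mean went from 50.8 ± 15.1 to 77.4 ± 26.0 CPM (SD, n = 4), a difference of similar size to the SD of the stretch wells.

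The fitted log2 change of ATF3 was 0.61 ± 0.30 (SE) in the unpaired fit, with a 95% confidence interval from -0.11 to 1.32 and an adjusted p of 0.999 in edgeR's test. In the paired fit it was 0.59 ± 0.06, with an interval from 0.47 to 0.72, which is 1.51-fold (1.38 to 1.65), and an adjusted p of 1.6e-04 in edgeR's test. By p, ATF3 then ranked 3 of 14571. The rise also passed when wells were compared only within replicates 1 and 2 (0.66; edgeR, adjusted p = 2.8e-04) and only within replicates 3 and 4 (0.52; edgeR, adjusted p = 0.0035). It passed as well with a coarse block, a term of 2 levels that separates only these 2 sets of replicates, a division seen in the data and not in the labels (0.59; edgeR, adjusted p = 4.6e-06).

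ATF4, the transcription factor at the centre of the pathway, did not move with ATF3. The gene lies on chromosome 10 (26490223 to 26492367, minus strand) and had from 13902 to 17724 counts per well. Control replicates 1 to 4 held 515, 469, 512 and 530 CPM, and stretch replicates 1 to 4 held 484, 514, 510 and 550 CPM. The groups covered nearly the same range, and the stretch well was higher in 2 of 4 pairs. The log2 change was 0.02 ± 0.05 in the unpaired fit (95% interval -0.08 to 0.13; edgeR, adjusted p = 0.999) and 0.02 ± 0.04 in the paired fit (-0.06 to 0.10; edgeR, adjusted p = 0.943). The interval in the unpaired fit allows a change of ATF4 RNA of at most 1.09-fold upward.

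The difference between ATF3 and ATF4 was read from their log2 ratio in each well. In control replicates 1 to 4 the ratio was -2.91, -3.02, -3.69 and -3.83, and in stretch replicates 1 to 4 it was -2.33, -2.31, -3.23 and -3.31. The ratio was higher after stretch in 4 of 4 pairs, while replicates 1 and 2 of both groups stood above replicates 3 and 4. The mean went from -3.36 ± 0.47 to -2.80 ± 0.55 (SD, n = 4), a difference of 0.57 that did not pass a two-sided exact permutation test over the 8 wells (p = 0.171; the 70 assignments allow 0.0286 at the smallest). That test ignores the pairing, and 4 pairs are too few for an exact paired test to pass. In the paired fit the intervals of the 2 genes, 0.47 to 0.72 and -0.06 to 0.10, did not overlap.

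**Figure D2:**
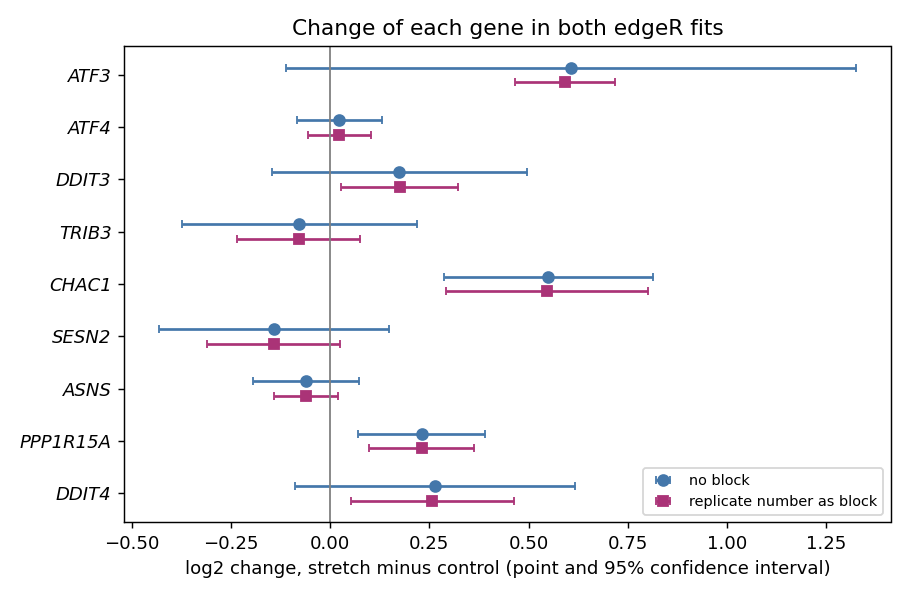
Log2 change of each gene, stretch minus control (horizontal axis), with its 95% confidence interval in the unpaired edgeR fit (circles) and in the paired fit (squares). The interval of ATF3 spanned -0.11 to 1.32 in the unpaired fit and 0.47 to 0.72 in the paired fit, while that of CHAC1 lay above 0 in both fits and those of ATF4, TRIB3, SESN2 and ASNS held 0 in both.

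CHAC1 encodes an enzyme that degrades glutathione and is a known target induced late in the ATF4, ATF3 and CHOP cascade. The gene lies on chromosome 30 (8370410 to 8372770, plus strand) and was the lowest of the 9, with 149 to 170 counts per control well and 199 to 261 per stretch well. Control replicates 1 to 4 held 5.58, 5.50, 5.04 and 4.85 CPM, and stretch replicates 1 to 4 held 6.83, 7.54, 8.95 and 7.38 CPM. Unlike ATF3, it showed no overlap between the groups, as did 1.30% of all tested genes in this direction. None of the other 8 genes lay wholly above or wholly below its control wells (1.24% of all genes lay wholly below). The mean went from 5.24 ± 0.35 to 7.68 ± 0.90 CPM (SD, n = 4), more than either SD.

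The log2 change of CHAC1 was 0.55 ± 0.12 in each fit, 1.46-fold (1.22 to 1.76) in the unpaired fit. Its adjusted p was 0.409 in the unpaired fit and 0.0451 in the paired fit in edgeR's test. That call was close to the threshold: in the paired edgeR fit it was lost when any 1 of the 4 pairs was left out (adjusted p from 0.103 to 0.208), and limma-voom with the same block gave an adjusted p of 0.0613. DESeq2 without pairing called it (adjusted p = 0.0150).

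DDIT3 encodes CHOP, a bZIP factor of the same cascade that is linked to cell death under prolonged stress. Control replicates 1 to 4 held 32.4, 27.1, 21.0 and 24.8 CPM, and stretch replicates 1 to 4 held 33.4, 34.5, 26.3 and 24.5 CPM. The groups overlapped, and the stretch well was higher in 3 of 4 pairs. Its log2 change was 0.17 ± 0.14 in the unpaired fit and 0.18 ± 0.07 in the paired fit (edgeR, adjusted p = 0.999 and 0.425). DDIT3 lies on chromosome 10 (1960652 to 1966292, minus strand), where its exons overlap those of MARS1 on the opposite strand. The strand setting of the counting is not given in the sources used here, so its value is uncertain.

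TRIB3, a pseudokinase that restrains ATF4 and CHOP, and ASNS, the asparagine synthetase that serves as a standard readout of ATF4 activity, did not pass. TRIB3 held 18.9, 19.2, 24.9 and 25.3 CPM in control replicates 1 to 4 and 16.7, 20.6, 25.4 and 21.0 CPM in stretch replicates 1 to 4. ASNS held 147, 133, 155 and 148 CPM in the control replicates and 142, 126, 147 and 144 CPM in the stretch replicates. The groups overlapped for each gene. ASNS was slightly lower after stretch in 4 of 4 pairs, as were 7.84% of all tested genes, and TRIB3 was lower in 2 of 4. The log2 changes were -0.08 ± 0.14 for TRIB3 and -0.06 ± 0.06 for ASNS in the unpaired fit (edgeR, adjusted p = 0.999 for each), and -0.08 and -0.06 in the paired fit (edgeR, adjusted p = 0.863 and 0.75). For ASNS the 95% interval in the unpaired fit ran from -0.19 to 0.07.

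PPP1R15A encodes GADD34, the stress-induced partner of protein phosphatase 1 that removes phosphate from eIF2 and so closes the loop. Control replicates 1 to 4 held 53.97, 52.0, 44.3 and 49.0 CPM, and stretch replicates 1 to 4 held 62.5, 53.79, 62.1 and 55.4 CPM. Only control replicate 1 reached above the lowest stretch well, and the stretch well was higher in 4 of 4 pairs. The log2 change was 0.23 ± 0.07 in the unpaired fit (95% interval 0.07 to 0.39; unadjusted p = 0.00858; edgeR, adjusted p = 0.999) and 0.23 ± 0.06 in the paired fit (edgeR, adjusted p = 0.131). It did not pass over all genes in either fit.

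SESN2 and DDIT4 encode inhibitors of mTORC1, the kinase complex that promotes growth, and are induced by ATF4 as well as by p53, low oxygen or hormones. SESN2 held 21.3, 20.8, 16.1 and 16.1 CPM in control replicates 1 to 4 and 20.9, 16.1, 14.2 and 16.1 CPM in stretch replicates 1 to 4. DDIT4 held 7.38, 9.09, 10.9 and 8.61 CPM in the control replicates and 8.48, 12.4, 13.3 and 9.06 CPM in the stretch replicates. Neither separated the groups, and they leaned in opposite directions: DDIT4 was higher after stretch in 4 of 4 pairs and SESN2 in 1 of 4. The log2 changes in the paired fit were 0.26 ± 0.10 for DDIT4 and -0.14 ± 0.08 for SESN2 (edgeR, adjusted p = 0.383 and 0.68). In the unpaired fit they were 0.27 ± 0.16 and -0.14 ± 0.13, with an adjusted p of 0.999 for each in edgeR's test.

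**Figure D3:**
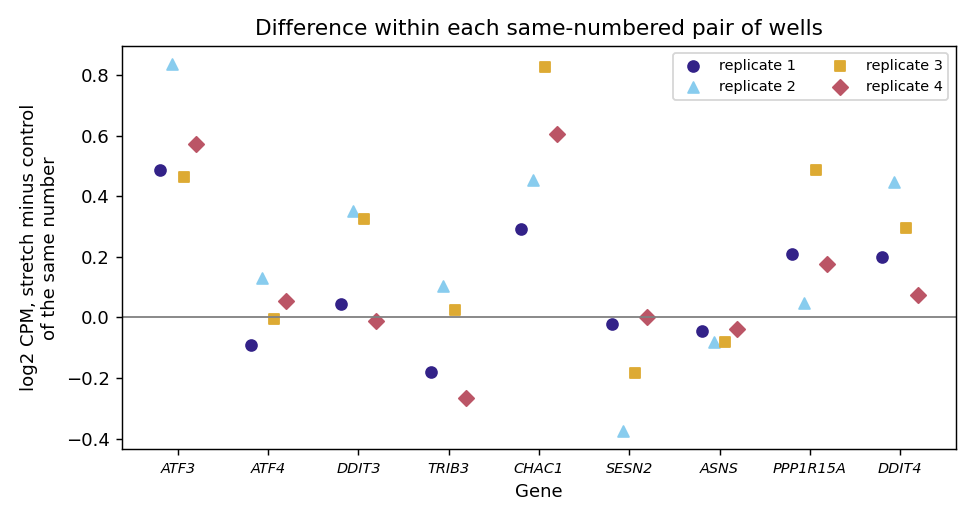
Difference in log2 CPM between the stretch and the control well of the same replicate number (vertical axis) for each of the 9 genes, with 1 symbol per number. All 4 pairs lay above 0 for ATF3 (0.46 to 0.84), CHAC1, PPP1R15A and DDIT4, all 4 lay below 0 for ASNS, and the pairs fell on both sides of 0 for ATF4, DDIT3, TRIB3 and SESN2.

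Within pairs the 2 genes that passed did not share one order. ATF3 differed most in replicate 2 (0.84) and by 0.46 to 0.57 in the others. CHAC1 differed most in replicate 3 (0.83) and least in replicate 1 (0.29), and PPP1R15A also differed most in replicate 3 (0.49). For DDIT4 and DDIT3 the largest differences were in replicate 2 (0.45 and 0.35).

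Levels of the 9 genes were compared per kilobase of exon. In control wells ATF4 stood far above the rest at 351 ± 18.0 CPM per kilobase, followed by ASNS at 65.5 ± 4.22 (SD, n = 4 throughout). DDIT3 (25.5 ± 4.65), ATF3 (21.3 ± 6.33) and PPP1R15A (18.4 ± 1.56) came next, and neighbours in this group had overlapping ranges. TRIB3 followed at 11.0 ± 1.75, then SESN2 (5.12 ± 0.79) and DDIT4 (5.08 ± 0.82), which overlapped each other, and CHAC1 at 3.52 ± 0.24. In stretch wells ATF3 reached 32.5 ± 10.9 CPM per kilobase and so stood above DDIT3 at 28.8 ± 4.86, with overlapping ranges. All 9 transcripts were measurable in unstretched cells, with ATF4 and ASNS the most abundant.

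The rest of the pathway was read from lists drawn up from general knowledge, but with earlier results of these data known. Counts and shares for these and all later lists are therefore descriptions. The eIF2 machinery and the ATF4 targets other than the 9 genes came to 67 tested genes in 5 lists. In this group 0 genes passed in the unpaired fit, against 0% of all genes, and 0 in the paired fit, against 0.700% (edgeR). At shares that low, 0 of 67 does not set the group apart from all genes. In the unpaired fit 0 had an unadjusted p under 0.05, against 3.97% of all genes (edgeR). In the paired fit, 5 had an unadjusted p under 0.05, 3 higher and 2 lower, against 8.89% of all genes. Their median log2 change was -0.0064, and the extremes were -0.19 and 0.19.

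Upstream, the 8 kinases and adaptors that sense stress had a median log2 change of -0.03. The 2 with the smallest p were EIF2AK3, which encodes the endoplasmic reticulum kinase PERK, and DELE1, which relays mitochondrial stress. EIF2AK3 went from 119 ± 16.6 to 107 ± 12.9 CPM (SD, n = 4), a log2 change of -0.16, and DELE1 from 48.5 ± 2.01 to 45.9 ± 1.63 CPM, a log2 change of -0.08. Neither passed in the paired fit (edgeR, adjusted p = 0.124 and 0.751). The 12 genes of eIF2, its exchange factor eIF2B and its phosphatases had a median of -7.8e-04. Among them PPP1R15B, the constitutive relative of PPP1R15A, changed by 0.11 and EIF2S1, which encodes the subunit that is phosphorylated, by 0.04 without passing (paired edgeR fit, adjusted p = 0.373 and 0.869).

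Downstream, the 19 genes of amino acid synthesis and transport had a median log2 change of -0.04, with 5 higher and 14 lower and 0 called in either fit. PYCR1, of proline synthesis, and PSAT1, of serine synthesis, had the smallest p and changed by -0.10 and -0.07 (paired edgeR fit, adjusted p = 0.646 and 0.561). Of the 13 genes of the tRNA synthetase list, which includes the tRNA export factor XPOT, 12 were lower by small amounts, with a median of -0.02 and values from -0.08 to 0.02. CARS1 and EPRS1, which charge cysteine and both glutamate and proline onto tRNA, changed by -0.08 and -0.05 (paired edgeR fit, adjusted p = 0.713 and 0.825). The 15 tested genes of the remaining ATF4 and CHOP targets had a median of 0.05, and CEBPB and STC2 changed by 0.19 and 0.13 without passing (paired edgeR fit, adjusted p = 0.42 and 0.827). GDF15, an often used readout of the pathway, had 3 counts over all 8 wells and was not tested.

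**Figure D4:**
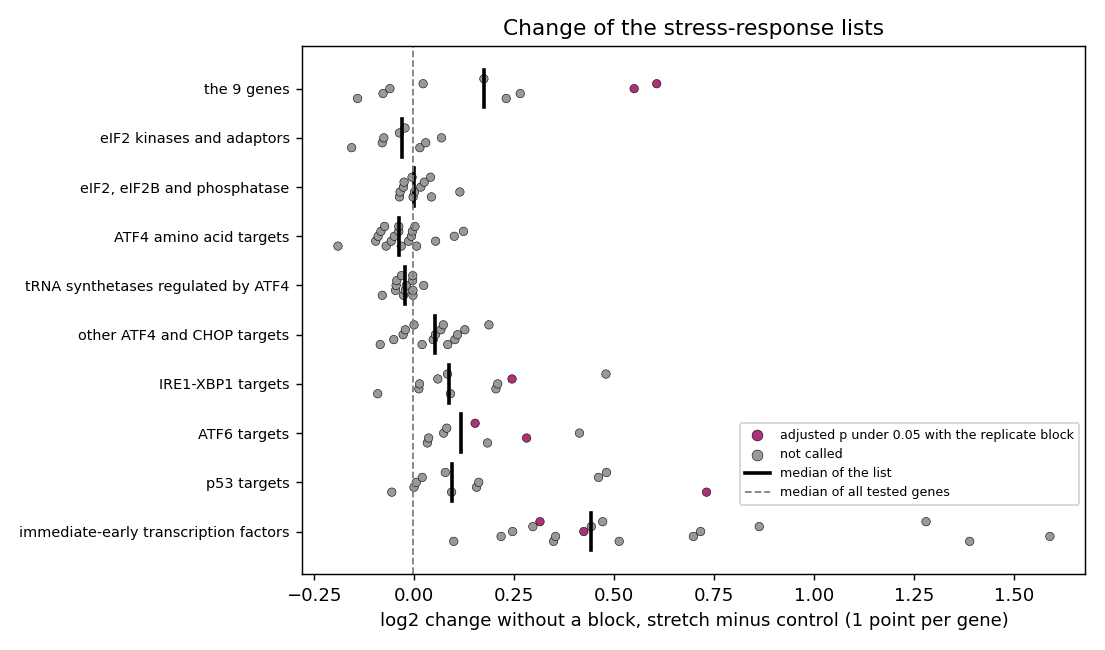
Log2 change in the unpaired fit (horizontal axis) of every tested gene in the lists named at the left, with 1 point per gene, a black line for the list's median and a dashed line for the median of all tested genes. Purple points passed an adjusted p of 0.05 in the paired fit, as did 0.700% of all tested genes. They were ATF3 and CHAC1 among the 9 genes, none in the 5 lists of eIF2 machinery and ATF4 targets, and EDEM1, MANF, HYOU1, BTG2, EGR1 and KLF6 in the lists below them.

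The unfolded protein response of the endoplasmic reticulum has 2 further arms beside PERK, which do not act through eIF2, and these were read from lists of 10 and 8 genes. Of the IRE1-XBP1 list, 9 of 10 were higher, with a median log2 change of 0.09, and of the ATF6 list 8 of 8, with a median of 0.12, beside 7018 of all 14571 tested genes. In the paired fit, 1 of 10 and 2 of 8 genes passed in edgeR's test, all higher, against 0.528% of all genes called higher. EDEM1, which directs misfolded glycoproteins to degradation, went from 227 ± 24.2 to 269 ± 29.6 CPM (SD, n = 4), a log2 change of 0.25 in the paired fit (edgeR, adjusted p = 0.0146). MANF and HYOU1, a secreted protective factor and a chaperone of the endoplasmic reticulum, rose by 0.28 and 0.15 in the paired fit (edgeR, adjusted p = 0.0023 and 0.0337). None of these 3 genes passed with the coarse block (edgeR, adjusted p = 0.592, 0.0694 and 0.568). HSPA5, the chaperone BiP, was singled out after its values were seen: it went from 1724 ± 375 to 2296 ± 395 CPM, higher in 4 of 4 pairs, and did not pass (paired edgeR fit, adjusted p = 0.265). A gene on the opposite strand overlaps its exons, so its value is uncertain.

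Relatives of the 9 genes were mostly without a call. Of 8 tested relatives, 4 were higher and 4 lower, with a median log2 change of 0.04. TRIB1, a pseudokinase of the same family as TRIB3, was the exception. It went from 59.3 ± 4.74 to 72.2 ± 8.60 CPM (SD, n = 4), a log2 change of 0.28 ± 0.05 in the paired fit (edgeR, adjusted p = 0.0194, and 0.0314 with the coarse block). TRIB2 changed by -0.01, CHAC2 by -0.02 and SESN1 by -0.06 in the unpaired fit, and DDIT4L had 0 counts. Among 16 tested members of the ATF, CREB and C/EBP families other than ATF3 and ATF4, the median log2 change was 0.05 and 0 passed in either fit. CREB3L2 changed by 0.15 and CEBPB by 0.19 (paired edgeR fit, adjusted p = 0.128 and 0.42), and JDP2, a close relative of ATF3 that overlaps a gene on the opposite strand, by 0.08.

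ATF3 also belongs to the immediate-early genes, so a list of 17 transcription factors of that kind was set beside it. All 17 were higher, with a median log2 change of 0.44 and values from 0.10 to 1.59, and ATF3 at 0.61 lay within this range. Of these, 9 had an unadjusted p under 0.05 in the unpaired fit, against 3.97% of all genes, and 0 passed adjusted, against 0% (edgeR). In the paired fit 2 of 17 passed, against 0.700% (edgeR), and in 6 of 17 every stretch well lay above every control well, against 1.30%. EGR1 went from 223 ± 23.7 to 299 ± 43.9 CPM (SD, n = 4) and KLF6 from 219 ± 32.4 to 272 ± 33.9 CPM, log2 changes of 0.42 and 0.32 in the paired fit (edgeR, adjusted p = 0.00169 and 0.00311). With the coarse block their adjusted p was 0.0668 and 0.134 in edgeR's test. The rise of such genes in these wells was known before this list was drawn up.

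Because SESN2, DDIT4, PPP1R15A and ATF3 can also be induced through p53, 11 tested p53 targets were examined. Of these 9 were higher, the median log2 change was 0.09, and 4 had an unadjusted p under 0.05 in the unpaired fit, against 3.97% of all genes (edgeR). The 4 were CDKN1A, MDM2, PLK3 and BTG2, and the other tested targets changed by -0.06 (SESN1) to 0.16 (TP53INP1). In 4 of 11 (MDM2, BAX, PLK3 and BTG2) every stretch well lay above every control well, against 1.30%, and 1 passed in the paired fit, against 0.700%. This was BTG2, an antiproliferative gene that is also immediate-early, which went from 57.4 ± 4.67 to 95.3 ± 21.0 CPM (SD, n = 4; paired edgeR fit, adjusted p = 0.0023, and 0.338 with the coarse block). Over all lists without the 9 genes, 127 were tested, 0 passed in the unpaired fit and 15 had an unadjusted p under 0.05, all of them higher. In the paired fit 7 passed, all higher, against 0.700% of all genes. None of the 7 came from the 5 lists of eIF2 machinery and ATF4 targets, where 0 of 67 tested genes is close to that share.

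The pattern of ATF3 over the 8 wells was set beside that of every tested gene. The 5 genes with the highest Pearson r with ATF3 in log2 CPM were CFAP36 (0.968), TMCC3 (0.967), NFIL3 (0.964), DUSP14 (0.961) and ARCN1 (0.961). NFIL3, a bZIP repressor, went from 13.2 ± 2.52 to 16.0 ± 2.11 CPM (SD, n = 4). None of the 5 passed in the paired fit (edgeR, adjusted p from 0.102 to 0.835). Of the other 8 members DDIT3 came closest, with r = 0.913, the rank of 47 among all genes, while the value for ATF4 was -0.33 and those for TRIB3 and ASNS were -0.76 and -0.70. With 8 wells and 14571 genes these values only describe likeness, and they hold the shared difference between replicates 1 and 2 and replicates 3 and 4 as well as that between the groups.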

How the data were processed

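Polyadenylated RNA from 8 wells was sequenced after stranded library preparation, per the labels. The authors deposited raw read counts, summed over the exons of each gene. The submitters' processing notes name FastQC 0.11.8, Trim Galore 0.6.5, STAR 2.7.3a, Subread and featureCounts. The genome build, the strand setting and the treatment of reads mapping to several genes are not given in the sources used here. Coordinates are those of the table, and 37291 of its symbols have the same start and end in RefSeq's annotation of the assembly UU_Cfam_GSD_1.0. No nucleotide or protein sequences were used here. Exon lengths in the deposited table were used for values per kilobase. Columns belonging to no sample numbered 0.

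Counts were tested in R 4.3.3 with edgeR 4.0.16 (TMM, filterByExpr with a minimum count of 10 and a minimum total of 15, robust glmQLFit, glmQLFTest), with Benjamini-Hochberg adjustment over all tested genes and a threshold of 0.05. P-values are two-sided. The procedure was tested on simulated data. Wells of 1 group differed by a chi-square per degree of freedom of 5.56 to 26.8, more than sampling noise, so all were kept.

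The sample titles number the wells 1 to 4 in each group, without saying what a shared number marks, and the labels say that wells were spread over devices at random. Same-numbered wells deviated together from their group means (correlations across genes of 0.108 to 0.328, each over 0.1), but only for replicate 1 were the 2 wells each other's closest match (1 of 4 numbers). By the correlations the numbers were taken as pairs and the blocked fit is given beside the fit without it. Alternatives were DESeq2 1.42.0, limma-voom (limma 3.58.1), other scalings and filters, both kinds of block (the block of 2 levels follows a division of the wells known from earlier results), wells within replicates 1 and 2 or 3 and 4, and omission of wells or pairs. Named genes were all 9 members, every called gene of each list, otherwise the 2 with the smallest p, and the 5 most like ATF3. The members and lists were chosen with earlier results of these data known. Figures used matplotlib 3.10.9 under Python 3.11.15.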

Additional observations from a re-analysis of the deposited data

How the results depend on the processing

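All wells are of 1 line and 1 time point, protein and phosphorylation were not measured, and the pairing by number comes from the titles, which do not say what it marks. The precision of CHAC1 is limited by its 149 to 261 counts per well. Without the block, the number of genes called went from 0 to 40 with DESeq2 and to 11 with no filter on low counts (826 at an unadjusted p under 0.05), while replicates 1 and 2 alone gave 51 and replicates 3 and 4 alone gave 25. It was 102 with the replicate block, 58 with the coarse block of 2 levels, and with the replicate block 105 with DESeq2 size factors, 145 with DESeq2 and 122 with limma-voom. Leaving out a pair under the replicate block gave 43, 67, 186 and 74 genes for numbers 1 to 4, and leaving out a well without the block gave 0 to 12.

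Of the 9 genes, 1 was called by DESeq2 (CHAC1), 1 within replicates 1 and 2 and 1 within replicates 3 and 4 (ATF3), 2 with each kind of block and with the replicate block and DESeq2 size factors, and 1 with the replicate block in DESeq2 and in limma-voom (ATF3). Omissions gave 0 to 1. DESeq2 with the replicate block gave no adjusted p for CHAC1 or DDIT4. Of the listed pathway genes, DESeq2 called 5, the replicate block 7 (7 with DESeq2 size factors, 12 in DESeq2, 16 in limma-voom), the block of 2 levels 1, replicates 1 and 2 alone 5 and replicates 3 and 4 alone 2, with 6, 6, 13 and 3 under the block without pairs 1 to 4 and 0 to 2 without a well.

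ATF3 kept its direction in all 25 alternatives. It passed in 11: with the replicate block (0.59; 0.59 with DESeq2 size factors, 0.59 in DESeq2, 0.60 in limma-voom), the block of 2 levels (0.59), within replicates 1 and 2 (0.66) or 3 and 4 (0.52), and with the block after omission of pair 1, 2, 3 or 4 (0.63, 0.51, 0.63 and 0.60; adjusted p up to 0.00613). Without a well its log2 change ran from 0.44 to 0.79. ATF4 changed sign without replicate 2 of both groups under the block (-0.0099), without control replicate 2 (-0.0093) and without stretch replicate 4 (-0.0075), ran up to 0.054 without the other wells, and passed in none of its 25. TRIB3 ran from -0.18 to 0.020 without a well, the last without stretch replicate 1. DDIT3, SESN2, ASNS, PPP1R15A and DDIT4 kept direction and passed in no alternative that gave an adjusted p, but their size moved when 1 well was left out: DDIT3 from 0.081 (without control replicate 3) to 0.29 (without control replicate 1), SESN2 from -0.26 (without stretch replicate 1) to -0.066 (without stretch replicate 3), ASNS from -0.099 (without control replicate 2) to -0.0097 (without stretch replicate 2), PPP1R15A from 0.18 to 0.27, and DDIT4 from 0.15 (without stretch replicate 3) to 0.37. The ATF3 to ATF4 difference was 0.57 with a prior count of 2 and 0.57 as the mean over pairs (the replicate block), and 0.41 to 0.74 under omissions. Where calls differed, the cause was not tested.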

Other observations

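Some of the 9 genes differed between replicates 1 and 2 and replicates 3 and 4 in control wells, a division noticed in the data and not given by the labels. SESN2 had 21.3 and 20.8 CPM in control replicates 1 and 2 and 16.1 CPM in each of control replicates 3 and 4. TRIB3 had the opposite order, with 18.9 and 19.2 CPM in control replicates 1 and 2 and 24.9 and 25.3 CPM in control replicates 3 and 4. The division was less clear in stretch wells. Stretch replicates 1 to 4 held 20.9, 16.1, 14.2 and 16.1 CPM of SESN2, and 16.7, 20.6, 25.4 and 21.0 CPM of TRIB3.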
